A study of Cricetulus griseus with 6 samples.

Results

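CHO-K6, a Chinese hamster ovary line that stably overexpresses human HER2, was compared with its parental line CHO-K1 over all 6 arrays of the series, 4 of CHO-K6 and 2 of CHO-K1. Total RNA was hybridised to the Affymetrix CHO Gene 2.0 ST array, and all 29700 transcripts of the main table entered the comparison. The CHO-K6 arrays came from cells left untreated or given trastuzumab, pertuzumab or trastuzumab + pertuzumab, and the CHO-K1 arrays came from cells left untreated or given trastuzumab + pertuzumab. Each antibody was used at 10 µg/mL for 24 h, in RPMI-1640 with 10% FBS after 24 h of starvation in 1% FBS. Both antibodies bind the extracellular part of HER2. The arrays of a line were taken as repeats of that line, although they differ in treatment, and the spread between them served as the error. This spread therefore holds any antibody effect along with variation of culture and array, and no condition was measured more than 1 time. CHO-K6 is 1 stably transfected clone kept in G418, which the study used at 200 µg/mL, so HER2, the clone and its selection cannot be told apart.

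HER2, encoded by ERBB2, is a receptor tyrosine kinase of the epidermal growth factor receptor family. It has no known ligand of its own and signals as a dimer with itself or with EGFR, HER3 or HER4, mainly through the RAS-ERK and PI3K-AKT pathways. The study states that the PI3K-AKT and MAPK pathways downstream of HER2 do not work in CHO-K6. Ligands such as epiregulin and amphiregulin are shed from the cell surface by ADAM proteases and bind EGFR. CHO cells come from hamster ovary, are the usual hosts for recombinant proteins, and are known for karyotypes that vary between clones.

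The arrays of the lines stood apart, and within CHO-K6 the pertuzumab array stood nearest to CHO-K1. The median absolute log2 difference was 0.18 to 0.24 between arrays of different lines, 0.10 to 0.17 between CHO-K6 arrays and 0.15 between the CHO-K1 arrays. Transcripts that differed by 2-fold or more numbered 438 to 1146 between the lines, 25 to 228 within CHO-K6 and 74 within CHO-K1. The first principal component, which held 62.9% of the variance, placed the untreated, trastuzumab and combination arrays of CHO-K6 at 26.5, 28.5 and 22.2 and the pertuzumab array at 4.8, against −34.5 and −47.6 for the untreated and combination arrays of CHO-K1. The second component, with 16.1%, set the pertuzumab array at −29.8 apart from the other 5. Array medians were 5.89 to 5.91 on the log2 scale. The number of arrays limits the precision, and 15 divisions of 6 arrays into 4 and 2 exist, so an exact permutation test of 1 transcript cannot fall below p = 0.0667.

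Of the 29700 transcripts, 1958 (6.59%) were called higher and 1849 (6.23%) lower in CHO-K6, where called means an adjusted p below 0.05 in limma's moderated test with Benjamini-Hochberg adjustment over all transcripts. Most differences were small. The median was 0.62 for transcripts called higher and −0.52 for those called lower, beside a median absolute difference of 0.17 and a median SE of 0.113 over all transcripts. A 2-fold difference or more was reached by 349 transcripts (1.18%) called higher and 133 (0.448%) called lower, and a 4-fold one by 50 and 18. The arrays of the lines did not overlap for any of the 3807 called transcripts, while over all transcripts 4715 (15.9%) had every CHO-K6 array above and 6254 (21.1%) every CHO-K6 array below both CHO-K1 arrays. The share called grew with signal, with 2.43% of transcripts below a mean log2 signal of 4, 6.89% between 4 and 6, and 20.3% and 22.5% between 6 and 8 and between 8 and 10, and it was 17.6% at 10 or more. A single gene symbol stood with 2521 called transcripts. With 1 transcript per gene, 1100 (7.38%) of 14899 genes were called higher and 1147 (7.7%) lower. Among the 9095 genes whose log2 signal averaged 6 or more, 11.1% were called higher and 10.3% lower.

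**Figure D1:**
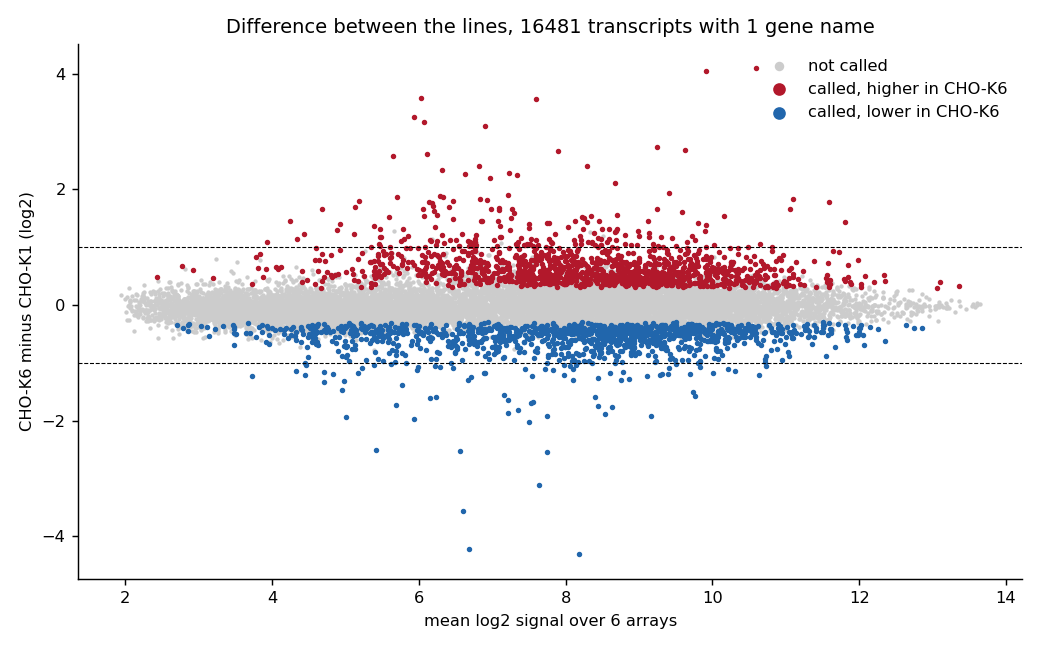
Difference between the lines (CHO-K6 minus CHO-K1, log2) against the mean log2 signal over 6 arrays for the 16481 transcripts with 1 gene symbol, with called transcripts in red (higher in CHO-K6) and blue (lower in CHO-K6) and dashed lines at 2-fold. Most called transcripts lie inside the dashed lines, and few calls fall below a signal of 4.

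A fit without 1 array has fewer residual degrees of freedom, and how far this changes its calls was not tested. The number of calls changed with each array left out. It was 6013 without the pertuzumab array of CHO-K6, 3767 of which were also called with all arrays. It was 2076, 1944 and 1932 without the untreated, trastuzumab and combination arrays of CHO-K6, and 1978 and 935 without the untreated and the combination array of CHO-K1. With the treatment as a block on the 4 arrays of matched treatments (untreated and combination in each line), 9 transcripts were called. In that fit 8043 had an unadjusted p below 0.05, beside 8713 in the fit of all arrays. The block leaves fewer residual degrees of freedom, so its number of calls cannot be set against that of all arrays. For 2070 (54.4%) of the 3807 called transcripts the pertuzumab array was the CHO-K6 array nearest to CHO-K1, against 11.6% to 15.6% for the others, and its median distance from the CHO-K1 mean was 0.485, against 0.575 to 0.605. A term for antibody treatment was added to the fit, with any antibody set against none in both lines. It called 0 transcripts in limma, with 1489 (5.01%) at an unadjusted p below 0.05. This term joins the antibodies, so it cannot single out an effect of pertuzumab.

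The largest rises were in genes of matrix, adhesion, transport and enzyme function, up to 17.1-fold. Log2 signals are given below in the order untreated, trastuzumab, pertuzumab and combination for CHO-K6, and untreated and combination for CHO-K1. Arsg, which encodes the lysosomal sulfatase arylsulfatase G, had 11.94, 11.95, 11.98 and 11.95 in CHO-K6, against 7.90 and 7.82 in CHO-K1 (difference 4.10, SE 0.08, adjusted p = 4.63e-07). The secreted matrix protein gene Ecm1 had 11.17, 11.20, 11.37 and 11.29 in CHO-K6, against 7.30 and 7.12 in CHO-K1 (difference 4.05, SE 0.10, adjusted p = 9.31e-07). In both genes the CHO-K6 arrays lay close together, and the lowest of them was 4.04 and 3.87 above the higher CHO-K1 array. The methyltransferase gene Mettl22 had 8.64, 8.82, 8.94 and 8.75 in CHO-K6, against 4.85 and 5.60 in CHO-K1 (difference 3.56, SE 0.19). Nedd9, a scaffold of focal adhesions, had 6.97, 6.96, 7.18 and 6.95 in CHO-K6, against 3.64 and 3.88 in CHO-K1 (difference 3.26, SE 0.11). The adhesion receptor gene Vcam1, which binds leukocyte integrins, had 10.17, 10.19, 10.12 and 10.13 in CHO-K6, against 7.32 and 7.53 in CHO-K1 (difference 2.73, SE 0.09). In these genes too every CHO-K6 array lay above both CHO-K1 arrays, by at least 3.04, 3.07 and 2.59 for Mettl22, Nedd9 and Vcam1. The CHO-K1 signals of Nedd9 lay among the dimmest transcripts, below 4, and whether they stood above background was not tested. The size of its difference and its rank are therefore uncertain. Several other leading genes also had signals below 6 in their lower line, and the same limit applies to them. Examples are Adh7 (4.08 and 4.65 in CHO-K1), Cmah (4.49 and 5.02 in CHO-K1) and Oat (4.23 to 4.97 in CHO-K6).

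The other leading rises spanned signalling, cytoskeleton and metabolism. The cyclic nucleotide phosphodiesterase gene Pde1c rose by 3.11 (SE 0.13) and Add2, a subunit of the membrane skeleton protein adducin, by 2.69 (SE 0.11). Slc7a11, the cystine-glutamate exchanger, had 8.82, 8.99, 8.48 and 8.84 in CHO-K6, against 6.21 and 6.04 in CHO-K1 (difference 2.66, SE 0.14). Adh7, an alcohol dehydrogenase that also oxidises retinol, rose by 2.62 (SE 0.16). Cmah, which makes the sialic acid Neu5Gc, had 7.27, 7.13, 6.63 and 7.32 in CHO-K6, against 4.49 and 5.02 in CHO-K1 (difference 2.33, SE 0.22). In Slc7a11 and Cmah the pertuzumab array was the lowest of CHO-K6 and still lay above both CHO-K1 arrays. The RNA-binding protein gene Igf2bp3 rose by 2.29, the cardiac actin gene Actc1 by 2.25, the secreted guidance cue gene Sema3a by 2.19 and the metal ion transporter gene Slc11a1 by 2.11, with SEs of 0.14, 0.11, 0.11 and 0.12. Their adjusted p-values were 0.0001, 2.78e-05, 2.88e-05 and 5.32e-05.

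The largest fall was in Crip1, a small LIM domain protein gene, which had 6.52, 6.75, 6.99 and 6.70 in CHO-K6, against 10.99 and 11.12 in CHO-K1 (difference −4.32, SE 0.13, adjusted p = 2.52e-06). That is a 19.9-fold lower mean signal in CHO-K6. Xpnpep2, a membrane aminopeptidase gene, had 5.39, 5.26, 5.39 and 5.60 in CHO-K6, against 8.75 and 9.19 in CHO-K1 (difference −3.56, SE 0.14). Camsap3, whose product binds the minus ends of microtubules, had 6.37, 6.69, 6.69 and 6.64 in CHO-K6, against 9.64 and 9.77 in CHO-K1 (difference −3.11, SE 0.12). Postn, which encodes the matrix protein periostin, had 6.92, 7.14, 6.70 and 6.85 in CHO-K6, against 9.57 and 9.33 in CHO-K1 (difference −2.55, SE 0.14). The nearest arrays of the lines were 2.19 (Postn) to 4.0 (Crip1) apart in these genes. Ccn2, the matricellular protein also known as connective tissue growth factor, had 7.84, 7.82, 7.91 and 7.85 in CHO-K6, against 9.61 and 9.60 in CHO-K1 (difference −1.75, SE 0.08, adjusted p = 1.94e-05). The remaining leading falls were Cdsn, a corneodesmosome protein (−2.53), Oat, the ornithine aminotransferase (−2.51), Prkag2, a regulatory subunit of the energy sensor AMPK (−1.97), the chemokine receptor gene Ccr7 (−1.92), the calcitonin receptor gene Calcr (−1.91), the chemerin gene Rarres2 (−1.89), the glycolipid transferase gene Gbgt1 (−1.82), the thrombospondin gene Thbs3 (−1.77), the cardiac troponin T gene Tnnt2 (−1.74) and Ccdc85c (−1.69). The SEs of these genes were 0.08 to 0.24. The arrays of the lines did not overlap in any of the 30 leading genes, so no fit on fewer of the arrays could change a direction. All 30 leading genes kept their call with each array left out in turn, and 2 of them, Arsg and Crip1, were called with the treatment block, under which all 30 kept their direction.

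**Figure D2:**
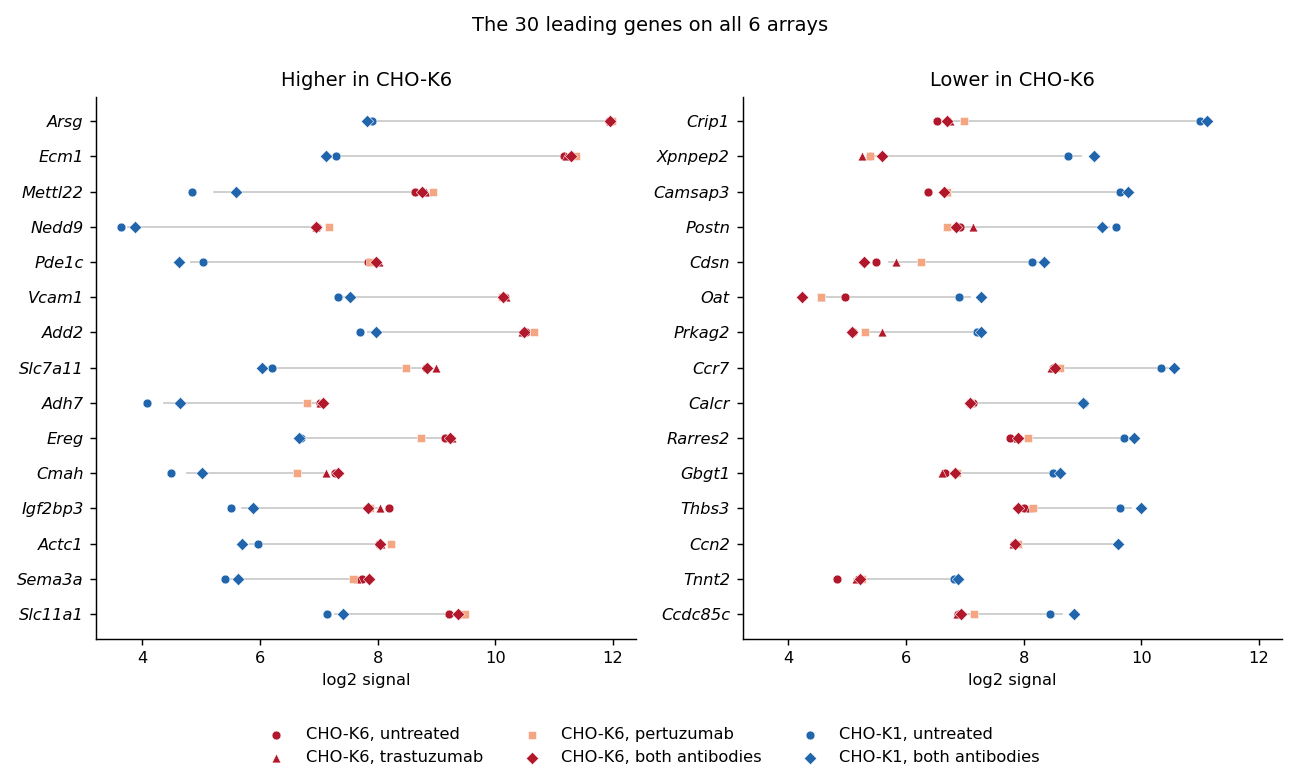
Log2 signal on all 6 arrays of the 15 genes with the largest called rises and the 15 with the largest called falls, with CHO-K6 arrays in red (pertuzumab in light orange), CHO-K1 arrays in blue and a grey line between the line means. In each gene the 4 CHO-K6 arrays lie apart from the 2 CHO-K1 arrays by more than they differ among themselves.

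The array's Erbb2 transcript was 9.01, 8.80, 9.21 and 9.01 in CHO-K6, against 8.50 and 8.64 in CHO-K1. The difference of 0.44 (SE 0.12, 1.35-fold) did not pass the threshold (adjusted p = 0.0545), although the arrays of the lines did not overlap. Over the alternatives its limma adjusted p ran between 0.0262 and 0.209. It was called with the signal filter (adjusted p = 0.0262), with the variance trend (adjusted p = 0.0313), and without the trastuzumab (adjusted p = 0.0471) or the pertuzumab array of CHO-K6 (adjusted p = 0.0481). The probes were made for the hamster gene, and how far they read the human HER2 transcript was not tested. Among 13 measured genes of the ERBB receptors, their ligands and the sheddases, 6 rose and 1 fell. That is 53.8% called, beside 15.1% of all genes. Their median difference was 0.44 beside −0.05 over all genes, and the member at this median was Erbb2 itself, which was not called. The called rises were in ligands, sheddases and the regulator Lrig1, and the called receptor gene, Egfr, was lower. Of the 9 members whose log2 signal averaged 6 or more, 5 rose. The epiregulin gene Ereg had 9.15, 9.27, 8.73 and 9.23 in CHO-K6, against 6.70 and 6.67 in CHO-K1 (difference 2.41, SE 0.15, adjusted p = 0.000112). The amphiregulin gene Areg had 7.71, 7.51, 7.65 and 7.76 in CHO-K6, against 5.73 and 6.23 in CHO-K1 (difference 1.68, SE 0.15, adjusted p = 0.000571). Both are EGFR ligands, and the lowest CHO-K6 array lay 2.03 and 1.28 above the higher CHO-K1 array.

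The sheddase genes Adam17 and Adam10, whose products release such ligands, rose by 0.66 (SE 0.08) and 0.71 (SE 0.12). The neuregulin gene Nrg3 rose by 0.57 and the receptor's negative regulator Lrig1 by 0.41, while the EGF receptor gene Egfr was lower by 0.44, at low signals of 5.21, 5.37, 5.31 and 5.38 in CHO-K6, against 5.64 and 5.88 in CHO-K1. Tgfa (−0.14), Epgn (−0.19), Nrg1 (0.49), Nrg2 (0.11) and the feedback inhibitor gene Errfi1 (0.08) did not pass. The calls of Ereg, Areg and Adam17 held with each array left out. That of Adam10 was lost without the combination array of CHO-K1 (adjusted p = 0.0883), that of Egfr without this array or without the untreated, trastuzumab or combination array of CHO-K6 (adjusted p up to 0.21), and those of Nrg3 and Lrig1 without any single array but the pertuzumab one (up to 0.292 and 0.143).

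Calls of list members in general changed when arrays were left out, in fits that also have fewer residual degrees of freedom. The 33 lists hold 950 measured genes, of which 110 were called higher and 122 lower, and 60 of the 232 calls held with each array left out in turn. Without the combination or the untreated array of CHO-K1, 168 and 115 of them were not called, without the untreated, trastuzumab or combination array of CHO-K6, 102, 103 and 106 were not, and without the pertuzumab array 3 were not. A call of a list member described below as held is 1 of those 60, and calls of stretch genes are described as held by the same rule. The median of 12 lists changed sign in at least 1 alternative, and none of these medians was beyond 0.175 in size. The lists were written with earlier results of these data known, so a share above the background is no separate evidence. They were not tested as sets, and their counts stand beside the background of 15.1% of all genes called, 7.38% higher and 7.7% lower. This background includes dim genes, which were called less often. Most list members averaged a log2 signal of 6 or more, where 21.4% of genes were called, 11.1% higher and 10.3% lower, and this is the nearer background for lists such as DNA replication (46 of 46 members at 6 or more), glycolysis and hypoxia (32 of 34) and NRF2 (28 of 30).

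**Figure D3:**
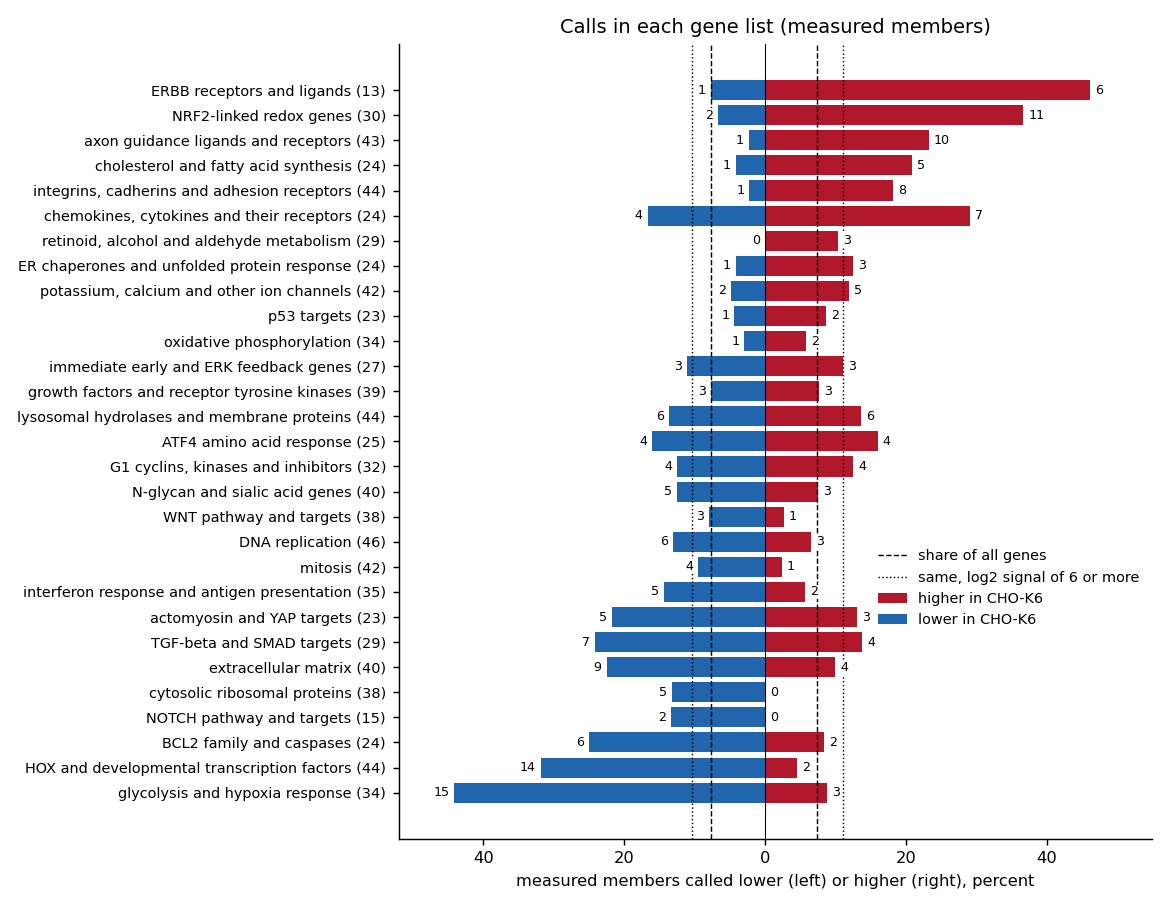
Percent of the measured members of each list of 10 genes or more that were called higher (red, right) or lower (blue, left) in CHO-K6, with the number called beside each bar, the measured members in parentheses dashed lines at the share of all genes (7.38% and 7.7%) and dotted lines at that of genes averaging 6 or more on the log2 scale (11.1% and 10.3%). The ERBB and NRF2-linked lists have the largest shares called higher, and the glycolysis and HOX lists the largest shares called lower. The lists were written with earlier results of these data known.

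Of 27 immediate early and ERK feedback genes, 3 rose and 3 fell, which is 22.2% called, with a median of −0.19. Egr1, an immediate early transcription factor induced by ERK, had 9.04, 9.25, 9.20 and 9.18 in CHO-K6, against 10.12 and 10.24 in CHO-K1 (difference −1.01, SE 0.09, adjusted p = 0.000815), and this was the list's held call. The phosphatase gene Dusp5 (−0.48) and the feedback inhibitor gene Spry1 (−0.33) were lower, and the phosphatase gene Dusp7 (0.49) and the transcription factor genes Etv1 (0.35) and Klf6 (0.33) were higher.

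Of 29 genes of the TGF-beta pathway and its targets, 4 rose and 7 fell and 18 were not called, with a median of −0.10. The co-receptor gene Tgfbr3 had 10.35, 10.41, 10.38 and 10.33 in CHO-K6, against 9.43 and 9.23 in CHO-K1 (difference 1.04, SE 0.09). The type I receptor gene Tgfbr1 was higher by 0.52, the ubiquitin ligase gene Smurf2 by 0.60 and the latent complex gene Ltbp1 by 0.32. The inhibitor of differentiation gene Id1, a target of BMP signals, was at 7.50, 7.52, 7.69 and 7.85 in CHO-K6, against 8.47 and 8.87 in CHO-K1 (difference −1.03, SE 0.15). The smooth muscle protein gene Tagln was lower by 0.95 (SE 0.13) and Cnn1, another one, by 1.21 (SE 0.20), beside Ccn2 at −1.75. The ligand gene Tgfb3 (−0.46), the type I receptor gene Acvr1 (−0.38) and Tgfbi (−0.35) were lower too, so called receptor genes stood on both sides. The calls of Tgfbr3, Ccn2, Tagln and Id1 held, and that of Cnn1 was lost without either CHO-K1 array (adjusted p up to 0.0556).

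Of 23 genes of actomyosin and YAP response, 3 rose and 5 fell, with a median of −0.07. The myosin genes Myl9 (−0.61), Myh10 (−0.52) and Myh9 (−0.40), and Ankrd1 (−0.63) and Ajuba (−0.41), were lower. Crim1, a membrane protein gene that binds BMPs, was higher by 0.75 with a held call, as were Amotl2 (0.59) and Pdlim5 (0.39) without one.

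Of 40 measured matrix genes, 9 fell and 4 rose, with a median of −0.15. The collagen gene Col3a1 had 7.42, 7.27, 7.56 and 7.55 in CHO-K6, against 8.57 and 8.57 in CHO-K1 (difference −1.12, SE 0.11). Thbs1, which encodes the adhesive glycoprotein thrombospondin 1, had 9.61, 9.57, 9.64 and 9.62 in CHO-K6, against 10.84 and 10.74 in CHO-K1 (difference −1.18, SE 0.08, adjusted p = 0.000177). The arrays within each line lay close together for Thbs1, with SDs of 0.029 in CHO-K6 (n = 4) and 0.071 in CHO-K1 (n = 2). The collagen-crosslinking oxidase gene Loxl2 (−0.83), the laminin gene Lamb2 (−0.70), the proteoglycan genes Vcan (−0.62) and Hspg2 (−0.48), Col12a1 (−0.43) and Thbs2 (−0.38) were lower beside Postn. The fibrillin gene Fbn1 (0.98), the small proteoglycan gene Bgn (0.89) and Col6a1 (0.46) were higher beside Ecm1. The calls of Ecm1, Fbn1, Bgn, Col3a1, Postn and Thbs1 held.

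Adhesion receptors and guidance molecules were mostly higher where they were called. Of 44 adhesion genes, 8 rose and 1 fell, with a median of −0.03 over all members and 0.18 over those whose log2 signal averaged 6 or more. Beside Nedd9 and Vcam1 they were the immunoglobulin superfamily genes Alcam (0.76) and Ncam1 (0.51), the heparan sulfate proteoglycan genes Sdc2 (0.66) and Gpc1 (0.50), the focal adhesion kinase gene Ptk2 (0.62) and the integrin gene Itga3 (0.55), while the cadherin gene Cdh13 was lower (−0.49). The calls of Nedd9, Vcam1, Alcam and Sdc2 held.

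Of 43 axon guidance ligands and receptors, 10 rose and 1 fell, with a median of −0.01. Ligand genes and receptor genes were both among the rises. Nrp2, a co-receptor of class 3 semaphorins and of VEGF, had 10.19, 10.29, 10.36 and 10.27 in CHO-K6, against 8.81 and 8.91 in CHO-K1 (difference 1.42, SE 0.09, adjusted p = 0.000102). The plexin genes Plxna2 and Plxna1, whose products are partners of neuropilins in semaphorin receptors, were higher by 0.89 (SE 0.10) and 0.60 (SE 0.09). The semaphorin genes Sema3a, Sema3c and Sema3e were higher by 2.19, 0.72 and 0.69, the netrin gene Ntn4 by 0.94, the netrin receptor gene Unc5b by 0.93 and the SLIT receptor gene Robo1 by 0.65. The ephrin gene Efna5 was higher by 0.30, and the ephrin receptor gene Epha2 was lower by 0.50. Of the 10 higher calls 8 held, and those of Sema3c and Efna5 did not. The median of this list changed sign in 6 of 13 alternatives, quantile normalization among them.

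Of 24 chemokines, cytokines and their receptors, 7 rose and 4 fell, with a median of −0.03. The chemokine gene Cxcl12 had 9.0, 8.91, 9.05 and 8.88 in CHO-K6, against 8.0 and 7.92 in CHO-K1 (difference 1.00, SE 0.09). The costimulatory ligand gene Tnfsf9 was higher by 1.00 and its receptor gene Tnfrsf9 lower by 0.62. The neutrophil chemokine gene Cxcl1 (0.93), the IL-6 family co-receptor gene Il6st (0.61), Tnfrsf12a (0.53), Il15 (0.53) and Tnfrsf21 (0.30) were higher. The myeloid growth factor gene Csf2 (−0.90), Lif (−0.57) and its receptor gene Lifr (−0.42) were lower. The calls of Cxcl12, Tnfsf9, Cxcl1 and Csf2 held.

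Other receptor pathways had few calls. Of 39 growth factor and receptor tyrosine kinase genes, 3 rose (Mertk 0.54, Met 0.41, Vegfc 0.32) and 3 fell (Pdgfra −0.62, Kdr −0.52, Vegfb −0.48), with a median of −0.07, and the held call was that of the PDGF receptor gene Pdgfra. Of 38 WNT genes, 1 rose (Apc 0.72) and 3 fell (Nkd2 −0.61, Fzd2 −0.55, Tcf7l2 −0.49), with a median of −0.11. Of 15 NOTCH genes, 2 fell (Hes1 −0.62, Lfng −0.57), with a median of −0.13. None of the WNT and NOTCH calls held.

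Of 30 measured redox genes linked to NRF2, the transcription factor of the oxidative stress response, 11 rose, 2 fell and 17 were not called, which is 43.3% called, with a median of 0.16. The glutathione transferase gene Gstp1 had 12.38, 12.22, 12.31 and 12.25 in CHO-K6, against 10.77 and 10.93 in CHO-K1 (difference 1.44, SE 0.09, adjusted p = 0.000122). Gclm, the modifier subunit of the enzyme that starts glutathione synthesis, had 10.85, 10.84, 10.80 and 10.79 in CHO-K6, against 9.81 and 9.81 in CHO-K1 (difference 1.01, SE 0.08). Gclc, its catalytic subunit, was higher by 0.79 (SE 0.14), and Slc7a11, which brings in the cystine for glutathione, by 2.66. The thioredoxin reductase gene Txnrd1 (0.79), Osgin1 (0.84), Gsto1 (0.56), the glutathione reductase gene Gsr (0.54), Me1 (0.49), Prdx1 (0.41) and the ferritin gene Fth1 (0.33) were higher. The extracellular glutathione peroxidase gene Gpx3 (−0.93) and the sulfiredoxin gene Srxn1 (−0.40) were lower. The calls of Slc7a11, Gstp1, Gclm, Osgin1, Txnrd1 and Gpx3 held, and that of Gclc was lost without the combination array of CHO-K1 (adjusted p = 0.101).

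Of 34 measured genes of glycolysis and the hypoxia response, 15 fell, 3 rose and 16 were not called, with a median of −0.19. That is 52.9% called, and 2 of the 15 lower calls held. Hexokinase 2 (Hk2), which catalyses the first step of glycolysis, had 7.56, 7.46, 7.97 and 7.69 in CHO-K6, against 8.55 and 8.63 in CHO-K1 (difference −0.92, SE 0.14, adjusted p = 0.00689). Other enzyme genes along the pathway were lower by less, with Pfkl at −0.66, Aldoa at −0.60, Pfkm at −0.58, Pgam1 at −0.52, Pgk1 at −0.42, Hk1 at −0.41 and Eno2 at −0.41, and the glucose transporter gene Slc2a1 at −0.47. Pdk1, a kinase that inhibits pyruvate dehydrogenase, had 9.13, 9.09, 8.96 and 8.99 in CHO-K6, against 9.80 and 9.61 in CHO-K1 (difference −0.66, SE 0.10). The hypoxia-responsive genes Bhlhe40 (−0.77), Ankrd37 (−0.73), Mxi1 (−0.58), Egln1 (−0.41) and P4ha1 (−0.34) were lower, and P4ha2 (0.41), Kdm3a (0.37) and Pfkfb3 (0.34) were higher. None of these differences reached 2-fold. The calls of Pdk1 and Mxi1 held, while those of Hk2, Bhlhe40, Pfkl and Aldoa were lost without the combination array of CHO-K1 (adjusted p = 0.064, 0.0683, 0.0833 and 0.0657).

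**Figure D4:**
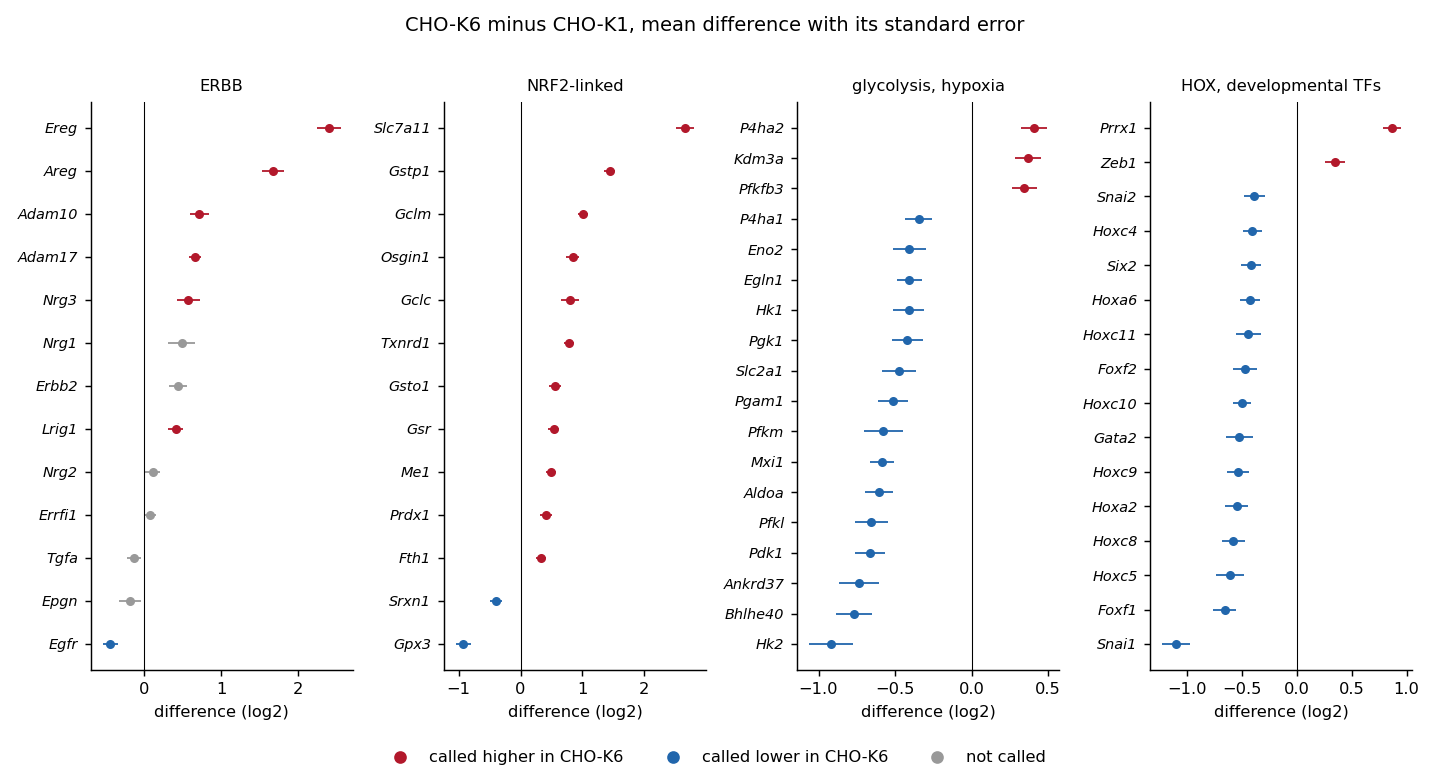
Difference between the lines (CHO-K6 minus CHO-K1, log2) with its standard error for all 13 measured ERBB genes and for the called members of the NRF2-linked, glycolysis and hypoxia, and HOX and developmental lists. Red marks called higher, blue called lower and grey not called, with Ereg at 2.41 and Snai1 at −1.11 as the ends of their panels.

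Of 25 genes of the ATF4 amino acid response, 4 rose and 4 fell, with a median of 0.05. Slc1a4, a transporter of neutral amino acids, had 11.59, 11.70, 11.93 and 11.59 in CHO-K6, against 9.79 and 9.95 in CHO-K1 (difference 1.83, SE 0.12, adjusted p = 0.000133). The proline synthesis gene Aldh18a1 (1.04, SE 0.12) and Nupr1 (0.81) were higher beside Slc7a11. The transcription factor gene Atf5 (−0.53), Mthfd2 (−0.43), Stc2 (−0.43) and the second proline synthesis gene Pycr1 (−0.35) were lower. The calls of Slc7a11, Slc1a4 and Aldh18a1 held, and the 4 lower ones did not.

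Of 24 cholesterol and fatty acid genes, 5 rose and 1 fell, with a median of 0.05. The sterol efflux genes Abca1 (0.83) and Abcg1 (0.51) and the synthesis genes Hmgcs1 (0.61), Msmo1 (0.53) and Idi1 (0.49) were higher, and the fatty acid synthase gene Fasn was lower (−0.53). The call of Hmgcs1 held. Of 29 genes of retinoid, alcohol and aldehyde metabolism, 3 rose (Adh7 2.62, Rdh14 0.78, Aldh5a1 0.57), with a median of −0.10, and the call of Adh7 held. Of 34 oxidative phosphorylation genes, 2 rose (Ndufs4 0.41, Ndufs1 0.34) and 1 fell (Ndufc1 −0.49), with a median of −0.06 and no held call.

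Glycan and lysosomal genes were called in both directions. Of 40 N-glycan and sialic acid genes, 3 rose and 5 fell, with a median of −0.02. The sialidase gene Neu2 had 8.24, 8.17, 8.49 and 8.37 in CHO-K6, against 9.64 and 9.58 in CHO-K1 (difference −1.29, SE 0.11, adjusted p = 0.000484). The glucosidase gene Mogs (−0.89), the sialyltransferase gene St3gal4 (−0.63), Alg5 (−0.48) and B4galt3 (−0.45) were lower, and the mannosidase genes Man1a1 (0.57) and Man1a2 (0.43) were higher beside Cmah. The calls of Cmah and Neu2 held. Of 44 lysosomal genes, 6 rose and 6 fell, with a median of −0.09. The alpha-galactosidase gene Gla had 8.84, 8.86, 9.07 and 8.89 in CHO-K6, against 10.09 and 10.12 in CHO-K1 (difference −1.19, SE 0.10), and the acid alpha-glucosidase gene Gaa was lower by 0.72. Acp2 (−0.54), Gusb (−0.46), Npc2 (−0.35) and Ctsa (−0.35) were lower by less. Sumf1, whose product activates sulfatases, was higher by 0.60 beside the sulfatase gene Arsg, with Idua (0.45), Hexa (0.42), Fuca1 (0.37) and Ppt1 (0.35). The calls of Arsg, Gla and Gaa held. Of 24 genes of ER chaperones and the unfolded protein response, 3 rose (Ero1b 1.05, Sel1l 0.53, Pdia6 0.37) and 1 fell (P4hb −0.33), with a median of −0.01, and the call of the ER oxidase gene Ero1b held.

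Calls in the BCL2 family and caspase list and in the interferon and antigen presentation list were more often lower than higher. Those of the p53 list were not. The counts are small, and whether they lean to either side beyond the background was not tested. Of 24 BCL2 family and caspase genes, 6 fell and 2 rose, with a median of −0.08. The anti-apoptotic gene Bcl2a1 was higher by 0.87 (SE 0.12) with a held call, and the pro-apoptotic gene Bid by 0.40. The pro-apoptotic effector gene Bak1 (−0.79), the death adaptor gene Fadd (−0.59), the anti-apoptotic gene Bcl2l2 (−0.40), Ripk3 (−0.38) and Mlkl (−0.37) of necroptosis and the pro-apoptotic gene Bcl2l11 (−0.35) were lower. None of these lower calls held. Of 23 p53 targets, 2 rose (Plk2 0.62, Tp53inp1 0.54) and 1 fell, with a median of −0.10. Phlda3, whose product restrains AKT, had 8.73, 8.80, 9.12 and 8.89 in CHO-K6, against 9.89 and 10.29 in CHO-K1 (difference −1.21, SE 0.15), and its call and that of Plk2 held. Of 35 interferon and antigen presentation genes, 5 fell and 2 rose, with a median of −0.04. Tapbp (−0.94), which loads peptides on MHC class I, the immunoproteasome genes Psmb8 (−0.91) and Psmb10 (−0.84), Oasl (−0.50) and Isg20 (−0.42) were lower, and Ifi44 (0.94) and the RNA sensor gene Ifih1 (0.81) were higher. The calls of Psmb8 and Ifi44 held.

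Of 32 G1 genes, 4 rose and 4 fell, with a median of −0.09, and Tfdp2, a partner of E2F factors, was higher by 1.06 (SE 0.12) with a held call. The CDK inhibitor gene Cdkn2c (0.56), E2f6 (0.54) and Rb1 (0.47) were higher, and the cyclin gene Ccnd2 (−0.66), Cdc25a (−0.42), E2f8 (−0.38) and Tfdp1 (−0.34) were lower. Of 46 DNA replication genes, 3 rose (Orc2 0.58, Cdc7 0.47, Gins1 0.37) and 6 fell, among them Rfc4 (−0.55), Cdt1 (−0.54), Rfc5 (−0.49) and Rrm1 (−0.48), with a median of −0.10. Of 42 mitosis genes, 1 rose (Ect2 0.52) and 4 fell (Cdc25b −0.58, Cdc20 −0.50, Kif20a −0.42, Ube2c −0.35), with a median of −0.09. Of 38 cytosolic ribosomal protein genes, 5 fell (Rps28 −0.78, Rps13 −0.47, Rps25 −0.46, Rps15 −0.41, Rpl13a −0.37), with a median of −0.14. No call of the replication, mitosis or ribosomal lists held, and their shares called were 19.6%, 11.9% and 13.2%, beside 21.4% of genes at a log2 signal of 6 or more.

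Of 44 measured HOX and other developmental transcription factor genes, 14 fell, 2 rose and 28 were not called, which is 36.4% called, with a median of −0.19, or −0.33 over the 33 whose log2 signal averaged 6 or more. Snai1, a repressor of epithelial genes, had 7.22, 7.23, 7.55 and 7.40 in CHO-K6, against 8.57 and 8.34 in CHO-K1 (difference −1.11, SE 0.13, adjusted p = 0.0018). The related gene Snai2 was lower by 0.39. The HOXC cluster genes Hoxc5 (−0.61), Hoxc8 (−0.58), Hoxc9 (−0.54), Hoxc10 (−0.51), Hoxc11 (−0.44) and Hoxc4 (−0.41), which set position along the body axis, were lower, as were Hoxa2 (−0.55) and Hoxa6 (−0.43). The forkhead genes Foxf1 (−0.66) and Foxf2 (−0.47), Gata2 (−0.53) and Six2 (−0.42) completed the falls. The mesenchymal homeobox gene Prrx1 had 10.06, 10.07, 9.99 and 10.02 in CHO-K6, against 9.16 and 9.18 in CHO-K1 (difference 0.86, SE 0.08), and Zeb1 was higher by 0.35. The calls of Snai1 and Prrx1 held, and those of Foxf1, Hoxc9 and Hoxc10 were lost without the combination array of CHO-K1 alone (adjusted p = 0.073, 0.115 and 0.0626). The other HOX calls were also lost without further arrays. The HOXC genes are neighbours on the genome.

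Of 42 ion channel genes, 5 rose and 2 fell, with a median of −0.18, or 0.08 over the 21 whose log2 signal averaged 6 or more. The chloride transporter genes Clcn5 (1.23) and Clcn3 (0.71), the sodium channel gene Scn8a (0.62), the calcium channel subunit gene Cacna2d1 (0.53) and the scramblase gene Ano6 (0.38) were higher, and Trpv2 (−0.59) and Kcnn1 (−0.42) were lower. The call of Clcn3 held, and that of Clcn5 was lost without the combination array of CHO-K1 (adjusted p = 0.0541).

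The labels call both lines epithelial. The epithelial marker genes Cdh1, Epcam, Krt8, Krt18 and Ocln had mean log2 signals of 5.98, 4.53, 4.40, 4.50 and 3.30 in CHO-K6, and 6.34, 4.20, 4.84, 4.85 and 3.36 in CHO-K1, and the differences did not pass the test (limma adjusted p = 0.0833 to 0.752). Of 8 mesenchymal markers, 5 averaged 6 or more on the log2 scale, among them Vim (13.28 in CHO-K6 and 13.20 in CHO-K1) and Fn1 (11.44 in CHO-K6 and 11.52 in CHO-K1). The 3 below 6 were Col1a1 (5.96 in CHO-K6 and 5.95 in CHO-K1), Cdh2 (5.19 in CHO-K6 and 5.24 in CHO-K1) and Thy1 (5.15 in CHO-K6 and 5.29 in CHO-K1). Of the 8 1 rose, S100a4 (0.86, SE 0.08), and 1 fell, Pdgfra (−0.62, SE 0.08), both with held calls. Of 3 granulosa and steroidogenic markers 1 fell (Star −0.40). The 3 blood and endothelial markers did not pass, with Ptprc at 3.92 and Pecam1 at 4.79 in CHO-K6 and at 3.96 and 4.80 in CHO-K1. Signals of different probes are not comparable as levels, and in bulk RNA fewer cells of a type and less RNA per cell cannot be told apart.

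Called genes also lay beside each other on the genome. Gene order was taken from the RefSeq annotation of the Chinese hamster assembly CriGri-PICRH-1.0, on which 14832 measured genes had a place. Of 1095 genes called higher, 172 (15.7%) had a next gene that was called higher too, beside 7.39% of all placed genes. Of 1144 called lower, 161 (14.1%) had a next gene called lower, beside 7.71%. Those background shares include dim genes. Among genes averaging a log2 signal of 6 or more, 11.1% were called higher and 10.3% lower. Neighbours were not compared at matched signal. Runs of 10 consecutive measured genes with at least 7 called in 1 direction were merged into 8 stretches, 6 higher and 2 lower, chosen after the values were seen. They held 145 genes, of which 107 were called in the direction of their stretch. In limma 0 were called in the opposite direction, on which side 12 lay, 2 of them at an unadjusted p below 0.05. These are 4.78% of all called genes. Of the 107 calls, 48 held with each array left out.

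The longest stretch ran over 42 measured genes from Ncapg2 to Cinp, and 32 of them were called lower. All 32 of its genes whose log2 signal averaged 6 or more were below 0, with a median of −0.78. The median was −0.82, −0.82, −0.69 and −0.79 on the untreated, trastuzumab, pertuzumab and combination arrays of CHO-K6 against the CHO-K1 mean, and 0.12 for the combination array of CHO-K1 minus the untreated one. Crip1, the gene with the largest fall, lies in this stretch, next to its relative Crip2 (−0.53). The chromatin regulator gene Mta1 (−1.19), the BTB domain gene Btbd6 (−1.68), Cdca4 (−1.29), the kinase gene Akt1 (−0.93), Tnfaip2 (−1.10) and the signalling adaptor gene Traf3 (−0.47) belong to it. AKT1 is a main effector kinase downstream of HER2, although the study states that this pathway does not work in CHO-K6. Akt1 and 16 more of the 32 calls held.

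The stretch from Plscr4 to Mrps22 held 23 genes, of which 18 were called higher, with a median of 0.87 over its 19 genes of higher signal. The checkpoint kinase gene Atr had 7.96, 7.98, 7.50 and 7.87 in CHO-K6, against 6.27 and 6.19 in CHO-K1 (difference 1.60, SE 0.14). The RAS GTPase-activating protein gene Rasa2 (1.91), the mitochondrial carrier gene Slc25a36 (1.64), Pxylp1 (1.44), the sodium-proton exchanger gene Slc9a9 (1.40), the exonuclease gene Xrn1 (1.17), Tfdp2 (1.06) and the coatomer gene Copb2 (0.87) were higher. Of these 18 calls 15 held. In the stretch from Atl2 to Spast 19 of 26 genes were called higher, with a median of 0.52, among them Spast (1.02), the RNA-activated kinase gene Eif2ak2 (0.77), Crim1 (0.75) and Birc6 (0.64), and 3 calls held.

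The second lower stretch, from B3galt4 to Bak1, had 9 of 12 genes called and a median of −0.68, and it holds Tapbp (−0.94), Pfdn6 (−0.89), Daxx (−0.82) and Bak1. The remaining stretches were higher. They ran from Bfar to Txndc11 (8 of 12 called, median 0.49), Amotl2 to Dnajc13 (7 of 10, 0.71), Aste1 to Dusp7 (7 of 10, 0.66) and E2f6 to Hpcal1 (7 of 10, 0.55). The list members Dusp7, Ltbp1, Amotl2, Crim1, Pdia6, E2f6, Tfdp2, Bak1 and Tapbp lie in stretches. Of the 30 leading genes, Crip1 and Gbgt1 had 3 of 4 nearest neighbours called in their own direction. Most of the 30 had 0 of 4, among them Arsg, Ecm1, Mettl22 and Nedd9, and the others had 1 or 2. The number of copies of these regions in either line was not analysed here.

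**Figure D5:**
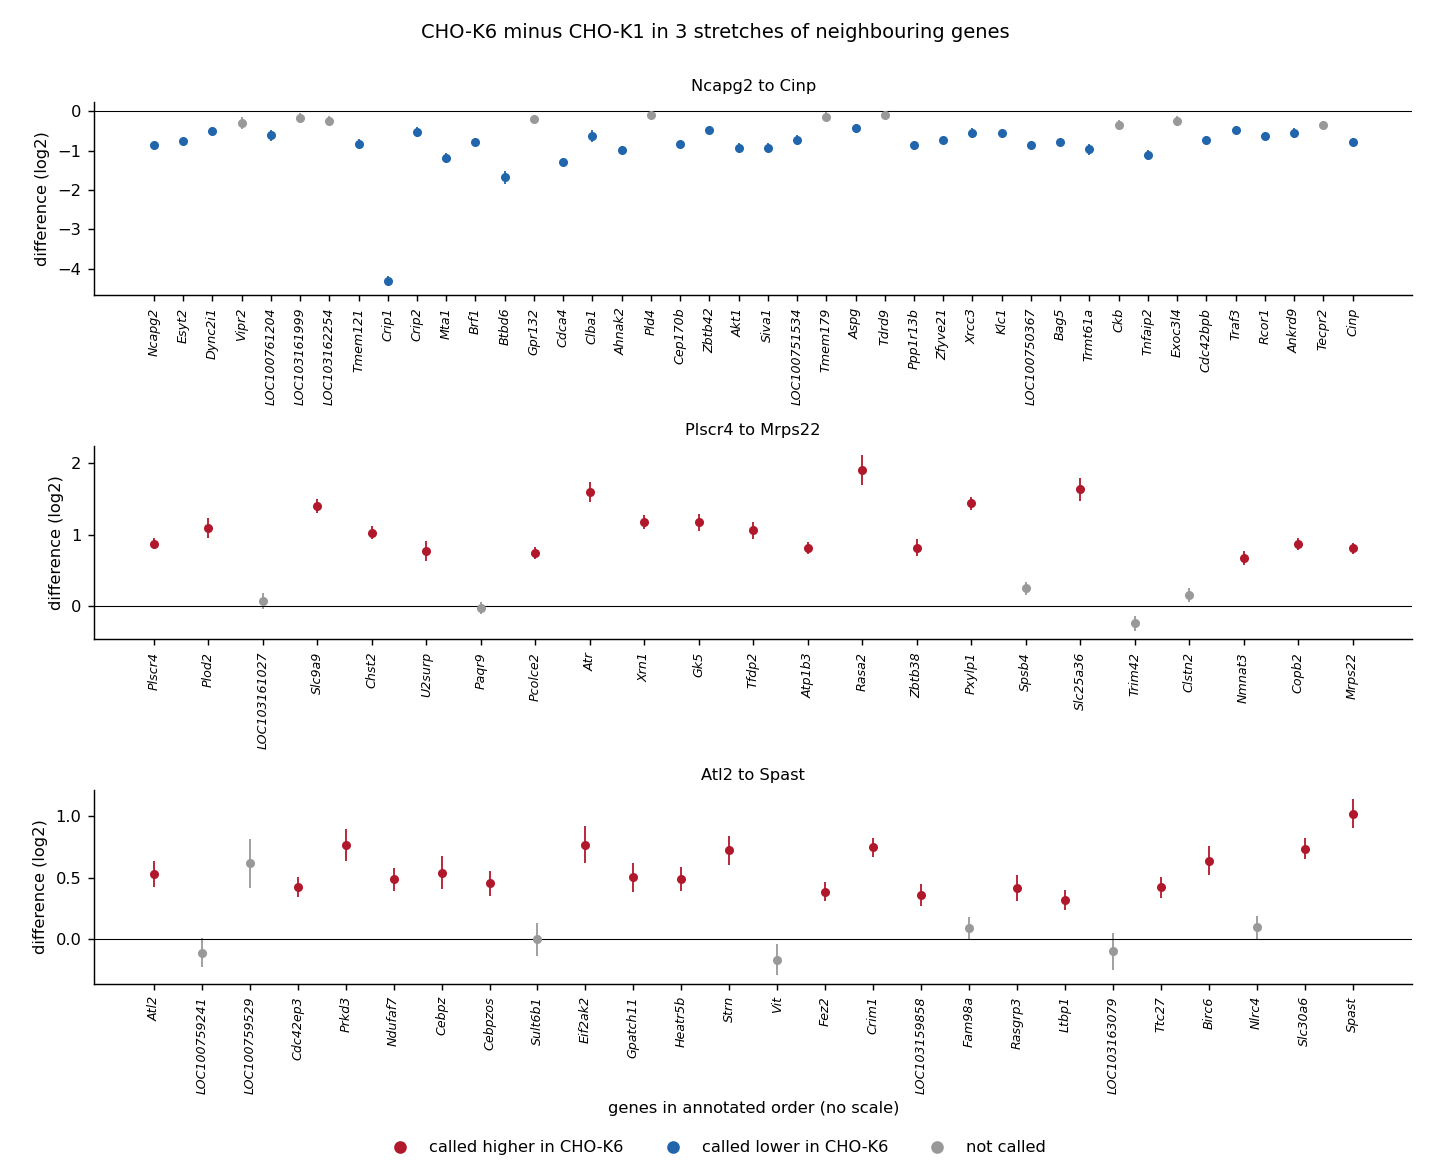
Difference between the lines (CHO-K6 minus CHO-K1, log2) with its standard error for the genes of 3 stretches in annotated order, with equal spacing, called lower in blue, called higher in red and not called in grey. In the top panel 32 of 42 genes are called lower and Crip1 reaches −4.32, and in the lower panels 18 of 23 and 19 of 26 genes are called higher.

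A 2-fold difference between the untreated arrays of the lines was not always called over all arrays. Of 623 such transcripts, 409 were called with a mean difference of 2-fold or more in the same direction, and 106 were not called. Zfp62, a zinc finger gene, had 6.51, 6.29, 5.15 and 6.42 in CHO-K6, against 5.14 and 4.47 in CHO-K1 (difference 1.29, SE 0.38, adjusted p = 0.0628). Naa16, a subunit gene of N-terminal acetylation, had 6.84, 7.01, 5.76 and 6.60 in CHO-K6, against 5.75 and 5.08 in CHO-K1 (difference 1.14, SE 0.34, adjusted p = 0.0662). In both transcripts the pertuzumab array of CHO-K6 lay beside the untreated array of CHO-K1, while the combination arrays of the lines differed by 1.95 and 1.52. The pertuzumab array was also the lowest of CHO-K6 in Ythdc2 (difference 0.83), Ermard (0.82) and the carnitine palmitoyltransferase gene Cpt1c (0.55), while in the sulfotransferase gene Sult2b1 (−0.59) it was the highest, and their adjusted p-values were 0.0586, 0.0815, 0.0723 and 0.0669. Each of these values is of a single transcript, the only one measured for Ythdc2 and Sult2b1. The remaining 3 transcripts of Naa16 were called higher, by 0.70 to 1.23, and 1 other transcript each of Ermard (0.53) and Cpt1c (1.07) was called higher as well, while that of Zfp62 (0.87, adjusted p = 0.0705) was not.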

How the data were processed

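The authors processed the arrays with the Affymetrix Transcriptome Analysis Console 3.0 and the CHO Gene 2.1 ST annotation library and deposited log2 signals per transcript. The Expression Console is listed in the records of the samples as well, and the normalization method is not given in the sources used here. No scaling was added to the deposited log2 values. Of 29700 transcripts, 16481 carried 1 gene symbol, 793 several and 12426 none, and 16394 matched a RefSeq gene by identifier.

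The 4 CHO-K6 arrays were compared with the 2 CHO-K1 arrays by limma 3.58.1 (lmFit and eBayes, R 4.3.3) with the line as the term and p-values adjusted by Benjamini-Hochberg over all transcripts. The fit had 4 residual degrees of freedom and a prior of 3.89. On simulated arrays of the line contrast with 29700 transcripts, 197 of 200 that had been given a shift of 1 log2 unit were called, as were 14 unchanged ones. The simulated noise was independent between transcripts, so it does not cover an array that deviates over many transcripts together. The shift was also larger than 87.3% of the differences called in the data. Nothing says that the arrays of a line came from separate cultures beyond their treatments, so p-values measure the spread between these arrays only.

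Where a gene had several transcripts, that of the highest mean signal was used, except for the 6 genes below that were not called, which stand for a single transcript. The genes named are Erbb2, the 15 largest rises and falls among called genes with 1 symbol, no overlap and a mean log2 signal of 6 or more in the higher line, called members of the lists, genes of neighbouring runs and 6 genes with a large untreated difference that were not called. Further members of lists and stretches were named after their values were seen. The members, the 33 gene lists and the tests were chosen with earlier results of these data known, and the stretches after the values were seen. Alternatives were quantile normalization, a signal filter, a variance trend, the series matrix table of 30934 transcripts, an antibody covariate, a treatment block and leaving out each array. Python 3.11.15, NumPy 2.4.6, pandas 2.3.3 and matplotlib 3.10.9 were used.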

Additional observations from a re-analysis of the deposited data

Results flagged for a closer look

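In 9 of the 182 named genes 1 of the 4 CHO-K6 arrays lay far from the other 3, with a gap that took up more of the group's range than Dixon's 95% critical value for 4 samples. Chance flags about 1 in 20 groups. The pertuzumab array was the one apart in 5 genes. It was the highest in Nedd9 (log2 signal 7.18), Actc1 (8.22) and Cdc20 (11.21), and the lowest in Zfp62 (5.15) and Met (9.82). The trastuzumab array was the highest in Adam17 (10.19) and the lowest in Ripk3 (4.74), and the untreated array was the highest in Rps25 (11.80) and the lowest in Camsap3 (6.37). Over all 29700 transcripts, the pertuzumab array lay apart in this way in 4.0% and each of the other CHO-K6 arrays in 0.822% to 1.08%.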

How the results depend on the processing

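Each condition was measured on 1 array, and 87.3% of the called differences were below 2-fold. Fits without 1 array have fewer residual degrees of freedom, and how far this changes their counts was not tested. With all arrays 1958 transcripts were called higher and 1849 lower, 349 and 133 of them by 2-fold or more. Leaving out each array in turn gave 543 to 3105 higher, 392 to 2908 lower, 230 to 498 higher by 2-fold and 121 to 181 lower by 2-fold, lowest without the combination array of CHO-K1 for all 4 counts and highest without the pertuzumab array of CHO-K6, except for the 2-fold lower count, which was highest without the untreated array of CHO-K1. The treatment block on 4 matched arrays gave 2 higher and 7 lower, all of them by 2-fold or more. With fewer arrays and a further term it leaves fewer residual degrees of freedom. How far this lowers its counts was not tested. Quantile normalization (1939 and 1871), the variance trend (2437 and 2223), the series matrix table (1831 and 1695) and the antibody covariate (1949 and 1848) kept the counts within 1.5 times, as did the filter on a mean log2 signal of 6 or more (2322 and 2131 of 14499 tested). The 8 stretches became 21 and 4 with 6 and 8 of 10 genes required, and 14 with the signal filter. They became 18 with the variance trend and 0 with the block. Leaving out the untreated, trastuzumab or combination array of CHO-K6 gave 2 each, and leaving out the pertuzumab array gave 15. Fewer than 8 were also left without either CHO-K1 array. The medians of the stretches kept their direction in every setting. The stretches had been chosen by calls in these same values, so this is no separate evidence. Of 182 named genes none changed direction in any setting run. In these genes the arrays of the lines did not overlap, so leaving out an array or pairing by treatment could not reverse a direction. Without the combination array of CHO-K1, 98 lost their call, with the block 173 did, and 4 to 8 did under quantile normalization, the series matrix table and the antibody covariate. The block pairs the lines by treatment, untreated with untreated and combination with combination.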
